A study of Mus musculus with 8 samples.

Results

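Ephrins are ligands that stay attached to the cell that makes them, and Eph receptors are the receptor tyrosine kinases they bind on a neighbouring cell. From the family, 10 genes were followed here, listed with earlier results of these data known. The ligand genes were Efnb1, Efnb2, Efnb3, Efna1 and Efna5, and the receptor genes were Epha3, Epha4, Epha7, Ephb2 and Ephb3. They are 10 of the 22 ephrin and Eph genes and of 56748 genes in the count table, and all 10 were among the 21508 genes that passed the expression filter.

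RNA was sequenced from tdTomato-positive cells sorted from mandibular molars of mice at postnatal day 10, after a tamoxifen pulse at postnatal day 3. In the 4 cKO libraries the genotype is given as Ctnnb1(-/-), with both copies of the beta-catenin gene deleted, and in the 4 cHet libraries as Ctnnb1(+/-), so the comparison group has lost 1 copy and is not wild type. All 8 libraries share the tdTomato sort and the tamoxifen, and no source used here names the Cre line that acts on Ctnnb1. The labels call the cells CXCL12+ apical papilla cells, the tissue dental pulp, and the dissociated cells dental follicle, and these names were not reconciled. The tables' columns carry numbers (cKO7, cKO9, cKO14, cKO15 and cHet8, cHet11, cHet12, cHet14) that match no sample title, so each was tied to its genotype only. Nothing says whether they are separate animals, so p-values reflect library-to-library scatter alone, part or all of which may be technical.

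A-type ephrins are held in the membrane by a lipid anchor, while B-type ephrins span it and have a cytoplasmic tail. A-type ligands bind mainly EphA receptors and B-type ligands mainly EphB receptors, with EphA4 known to bind both kinds. Binding signals forward into the receptor's cell and in reverse into the ligand's cell, and in many tissues the outcome is that cells sort apart or growing processes turn away. Ephrin-B1 is known for its part in the shaping of the face and skull, where cells with and without it form boundaries. In the intestine Ephb2 and Ephb3 are known targets of beta-catenin and its TCF partners.

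Total counts lay between 44444033 and 47598824 in cKO and between 45759087 and 50051392 in cHet. Over the whole gene, Ctnnb1 averaged 277 ± 39.2 CPM in cKO and 257 ± 40.2 CPM in cHet (SD, n = 4 each), where CPM is a count scaled to library size with trimmed-mean (TMM) factors. The deleted exons are not named, so this count cannot check the labels. Cxcl12, the chemokine gene in the cells' name, averaged 826 ± 238 CPM in cKO and 149 ± 91.5 CPM in cHet. Of 8 papilla markers all were above 1 CPM in every library, with summed levels of 2980 to 5474 CPM in cKO and 579 to 1459 CPM in cHet. By edgeR 3 of the 8, Cxcl12, Smoc2 and Igfbp5, were called higher in cKO and 0 lower, against 1.08% and 0.0558% of all tested genes. DESeq2 called 5 higher and 1, Tac1, lower, and voom called 6 higher and 0 lower. In either direction these tools called 8.75% and 7.22% of all tested genes. Sox9 and Sfrp2 had edgeR log2 fold changes of 2.32 and 2.02, both without overlap, and were not called by edgeR. Tac1 had the opposite order without overlap, at 8.53 ± 3.33 CPM in cKO and 26.8 ± 12.3 CPM in cHet (log2 fold change −1.65, edgeR adjusted p = 0.108). Fabp7 had a log2 fold change of −0.37. The 12 general mesenchyme markers summed to 13438 to 26638 CPM in cKO and 3466 to 11938 CPM in cHet, without overlap. Within each genotype 1 library had the lowest sum, cKO9 and cHet11. Markers of olfactory neurons were also present, at 6090 to 7500 CPM in cKO and 6819 to 12822 CPM in cHet over 11 genes, although no such cells are named in the labels. Their log2 fold changes ran from −0.29 for Gng8 to −0.56 for Cnga4. EdgeR called 0 of them and voom called 1, Rtp2, lower. The mean of their log2 CPM was 8.39 in cKO and 8.81 in cHet (two-sided exact permutation p = 0.0857). In bulk RNA a change in the number of cells of a type and a change in RNA per cell cannot be told apart.

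The windows upstream of 3 of the 10 genes are shown because the results turn on them: Efnb1 rose, Epha3 had the largest difference of the 10 genes, and Ephb3 is a known beta-catenin target elsewhere. Each line gives the 250 bases before the annotated transcript start, 5′ to 3′ on the gene's strand, from RefSeq on build GRCm38.p6, with every CpG in capitals. The Efnb1 window is chrX:99135811-99136060 on the plus strand, the Epha3 window is chr16:63864176-63864425 on the minus strand, and the Ephb3 window is chr16:21204545-21204794 on the plus strand.
Efnb1: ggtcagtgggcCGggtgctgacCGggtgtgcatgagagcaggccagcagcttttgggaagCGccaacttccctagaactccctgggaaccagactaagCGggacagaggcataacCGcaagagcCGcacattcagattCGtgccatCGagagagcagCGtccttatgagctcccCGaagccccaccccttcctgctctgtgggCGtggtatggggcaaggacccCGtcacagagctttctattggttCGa
Epha3: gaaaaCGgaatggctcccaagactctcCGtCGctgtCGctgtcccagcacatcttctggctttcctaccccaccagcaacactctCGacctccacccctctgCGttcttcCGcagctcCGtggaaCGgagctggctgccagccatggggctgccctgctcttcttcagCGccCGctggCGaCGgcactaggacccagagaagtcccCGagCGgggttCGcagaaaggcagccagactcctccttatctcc
Ephb3: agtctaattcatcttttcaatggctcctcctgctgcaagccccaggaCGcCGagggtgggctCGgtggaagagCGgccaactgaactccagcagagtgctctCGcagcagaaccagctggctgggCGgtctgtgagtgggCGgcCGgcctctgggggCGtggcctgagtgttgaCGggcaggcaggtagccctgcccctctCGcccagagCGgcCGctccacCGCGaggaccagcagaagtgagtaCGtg

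RefSeq windows were found for 9 of the 10 genes (11 windows, since Efna1 and Epha7 have more than 1), and not for Efnb3. These windows were rich in CpG, with 13 to 32 in the 250 upstream bases, against a median of 6 over 32851 windows, of which 92.1% held at least 1. The Efnb1 window held 13, the Epha3 window 16, the Ephb3 window 16 and the Efna5 window 32. TCF and LEF factors, through which beta-catenin acts on genes, recognise a core that was searched as CTTTGAA, as its variant CTTTGAT, in the form CTTTGTA and in the form CTTTGTT, on both strands of the full windows, 250 bases before to 50 after the start. The cores share their first letters and differ at the end, so no position can match more than 1 of them on a strand. Of the 11 windows 0 held any of these cores, where 16.9% of all windows did. A missing match says only that these letters are not in the window, and no longer stretch was searched. The full windows held 59.7% to 73.3% G and C, against a median of 52.7% over all windows.

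All 3 B-type ligand genes had higher means in cKO, and 2 of them passed the test. Efnb1, encoding ephrin-B1, stood at 110.4 CPM in cKO7, 65.1 in cKO9, 92.1 in cKO14 and 127 in cKO15, against 36.0 CPM in cHet8, 15.7 in cHet11, 34.1 in cHet12 and 27.9 in cHet14. Every cKO library lay above every cHet library. Efnb1 rose 3.47-fold, with a log2 fold change of 1.79 (SE 0.30, interval 1.12 to 2.47, edgeR adjusted p = 0.0399). Efnb3, encoding ephrin-B3, best known from neurons as a stop signal at the spinal midline, stood at 118 CPM in cKO7, 73.0 in cKO9, 87.6 in cKO14 and 87.4 in cKO15, against 38.0 CPM in cHet8, 22.9 in cHet11, 41.7 in cHet12 and 31.1 in cHet14. The groups again did not overlap, and Efnb3 rose 2.74-fold (log2 1.45, SE 0.22, edgeR adjusted p = 0.0376), the smallest p-value of the 10 genes.

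Efnb2 encodes ephrin-B2, known from arteries. It stood at 35.2 CPM in cKO7, 58.8 in cKO9, 38.7 in cKO14 and 49.3 in cKO15, against 23.5 CPM in cHet8, 11.02 in cHet11, 25.0 in cHet12 and 20.4 in cHet14. The groups did not overlap, but the log2 fold change of 1.19 (SE 0.28) had an edgeR adjusted p of 0.0875 and was not called. Its order differed from that of the other B-type ligands, as cKO9, lowest of the cKO libraries for Efnb1 and Efnb3, was the highest for Efnb2. Of the endothelial markers, Cdh5 reached at most 0.604 CPM in cKO and 0.540 CPM in cHet, Pecam1 7.86 CPM in cKO and 12.4 CPM in cHet, and Kdr 11.01 CPM in cKO and 7.63 CPM in cHet. Erg averaged 9.79 ± 4.93 CPM in cKO and 1.74 ± 1.08 CPM in cHet without overlap (log2 2.49, edgeR adjusted p = 0.0769) and was called higher by DESeq2 and voom, and Vwf had the opposite order without overlap (log2 −1.15, edgeR adjusted p = 0.314). The 9 endothelial markers summed to 18.8 to 45.9 CPM in cKO and 20.2 to 39.7 CPM in cHet.

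**Figure D1:**
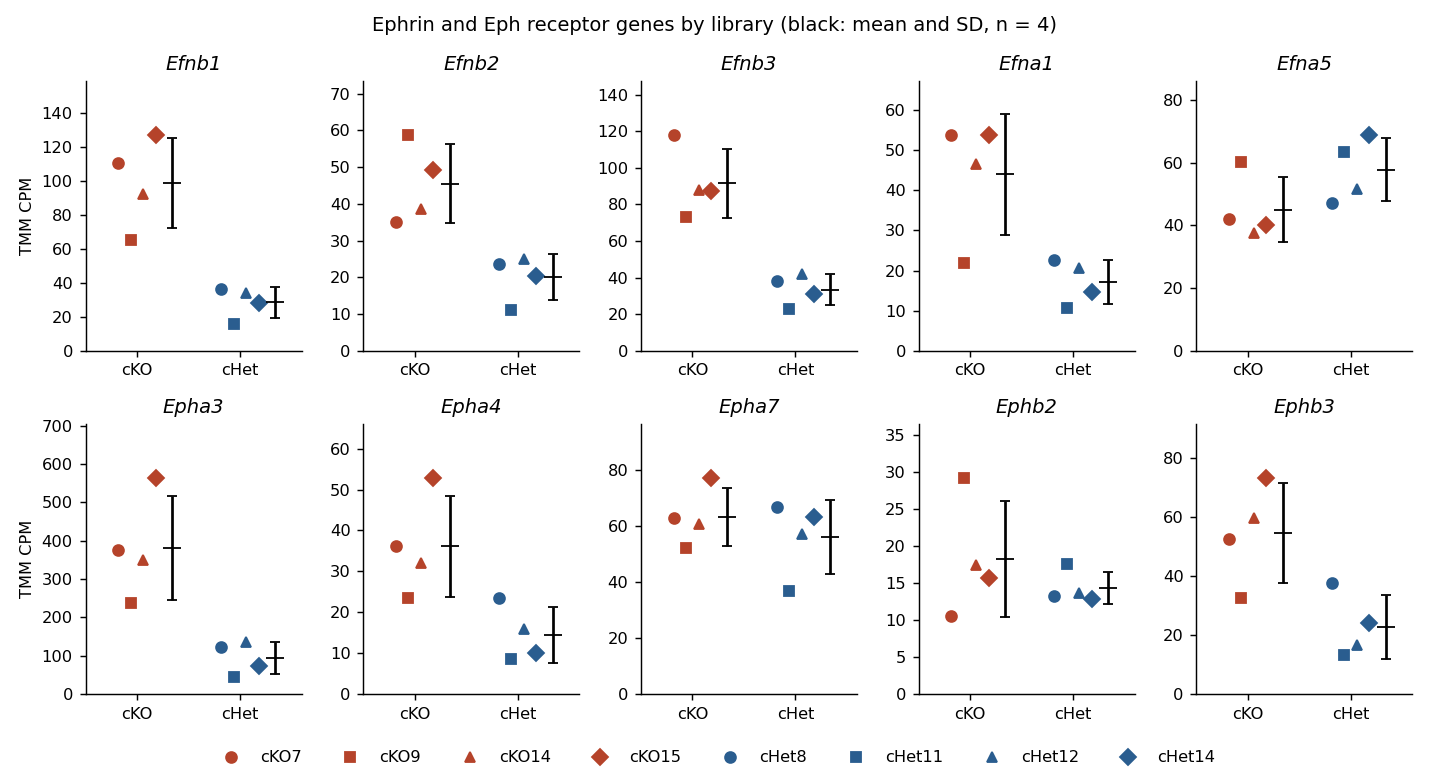
TMM-scaled CPM (vertical axes, from 0) of the 10 genes in each library, cKO in red and cHet in blue, with 1 symbol per library and the mean and SD of 4 libraries in black. Efnb1, Efnb2, Efnb3 and Epha3 have groups that do not overlap, while Efna5, Epha7 and Ephb2 are mixed.

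Neither of the listed A-type ligand genes passed the test. Efna1, encoding ephrin-A1, stood at 53.8 CPM in cKO7, 21.9 in cKO9, 46.6 in cKO14 and 53.8 in cKO15, against 22.6 CPM in cHet8, 10.8 in cHet11, 20.6 in cHet12 and 14.7 in cHet14. A single library, cKO9, reached into the cHet range, and the log2 fold change of 1.36 (SE 0.34) was not called (edgeR adjusted p = 0.0975). Efna5 encodes ephrin-A5, known for guiding retinal axons. It was the only one of the 10 genes with a negative value, at 42.1 CPM in cKO7, 60.2 in cKO9, 37.5 in cKO14 and 40.0 in cKO15, against 47.1 CPM in cHet8, 63.6 in cHet11, 51.7 in cHet12 and 68.8 in cHet14. The groups overlapped through cKO9, and the difference did not pass (log2 −0.36, SE 0.19, edgeR adjusted p = 0.377).

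Among the EphA receptors, Epha3 had both the highest level in cKO and the largest difference of the 10 genes. EphA3, a receptor for ephrin-A5 and other A-type ligands, is known from mesenchymal cells and the developing heart. Epha3 stood at 377 CPM in cKO7, 237 in cKO9, 349 in cKO14 and 563 in cKO15, against 122 CPM in cHet8, 44.9 in cHet11, 135 in cHet12 and 74.1 in cHet14. No cHet library reached the lowest cKO library. Its mean was 4.06-fold higher in cKO (log2 2.02, SE 0.39, interval 1.14 to 2.91), yet the edgeR adjusted p of 0.0535 lay just outside the threshold of 0.05.

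Epha4, whose receptor takes ligands of both classes, stood at 36.2 CPM in cKO7, 23.4 in cKO9, 32.1 in cKO14 and 52.8 in cKO15, against 23.6 CPM in cHet8, 8.52 in cHet11, 15.8 in cHet12 and 9.91 in cHet14. Only cKO9 and cHet8 overlapped, and the log2 value of 1.32 (SE 0.37) was not called (edgeR adjusted p = 0.134). Epha7, encoding another receptor of A-type ephrins, stood at 62.9 CPM in cKO7, 52.1 in cKO9, 60.4 in cKO14 and 76.9 in cKO15, against 66.6 CPM in cHet8, 36.8 in cHet11, 57.1 in cHet12 and 63.1 in cHet14. The groups were mixed, with a log2 value of 0.17 and an interval of −0.29 to 0.64 (edgeR adjusted p = 0.729).

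Neither of the EphB receptor genes that beta-catenin controls in the intestine passed the test. Ephb3 stood at 52.5 CPM in cKO7, 32.5 in cKO9, 59.6 in cKO14 and 73.1 in cKO15, against 37.6 CPM in cHet8, 13.1 in cHet11, 16.6 in cHet12 and 23.9 in cHet14. Its log2 value of 1.26 (SE 0.36, edgeR adjusted p = 0.142) was not called, and cHet8 lay above cKO9. Ephb2 stood at 10.5 CPM in cKO7, 29.1 in cKO9, 17.4 in cKO14 and 15.7 in cKO15, against 13.3 CPM in cHet8, 17.6 in cHet11, 13.6 in cHet12 and 12.8 in cHet14. Its lowest and its highest library were both cKO, and the log2 value of 0.35 had an interval of −0.35 to 1.04 (edgeR adjusted p = 0.620). Neither gene had a lower mean in cKO, and the difference between the genes' changes was not tested.

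Read together, 2 of the 10 genes were called higher in cKO and 0 lower, where 1.08% of all tested genes were called higher and 0.0558% lower by edgeR. At an unadjusted p under 0.05, 7 were higher and 0 lower, against 10.8% and 6.33% of all tested genes. Groups did not overlap for 4 genes, all higher in cKO, against 6.46% higher and 3.68% lower over all tested genes. For those 4 genes, Efnb1, Efnb2, Efnb3 and Epha3, the two-sided exact permutation p over 70 assignments was 0.0286, the smallest that 4 against 4 libraries can give. The median log2 value was 1.29 for the 10 genes and −0.03 for all tested genes. For the ligands it was 1.36 and for the receptors 1.26. The 10 tested family genes outside the list had a median of 0.02, with 5 positive and 5 negative values. Because the list was chosen with earlier results of these data known, its counts and medians are a description and no independent test of the family. DESeq2 and limma voom each called 7 of the 10 genes higher, Efnb1, Efnb2, Efnb3, Efna1, Epha3, Epha4 and Ephb3, against 6.24% and 5.96% of all genes. Neither tool called Efna5, Epha7 or Ephb2.

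The calls by edgeR depended on which libraries entered the fit. Leaving out any 1 of cKO7, cKO14, cKO15, cHet8, cHet11, cHet12 or cHet14 ended the calls of Efnb1 and Efnb3, with adjusted p of up to 0.149 and 0.146. These fits called 0% to 0.703% of all tested genes in either direction, against 1.13% with every library. Both genes had an unadjusted edgeR p under 0.05 in all 8 omissions, as did Efnb2, Efna1, Epha3, Epha4 and Ephb3. At that threshold stood 11.4% to 22.7% of all tested genes in these omissions, in either direction. The sizes moved little, as log2 values lay between 1.59 and 1.95 for Efnb1 and between 1.30 and 1.58 for Efnb3 over the 8 omissions. Without cKO9, edgeR called 4 of the 10 genes higher, adding Epha3 (log2 2.19, adjusted p = 0.0298) and Efna1 (log2 1.58, adjusted p = 0.0265), where 3.67% of all genes were called higher. Efnb1 and Efnb3 kept their calls there, both with an edgeR adjusted p of 0.0222.

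**Figure D2:**
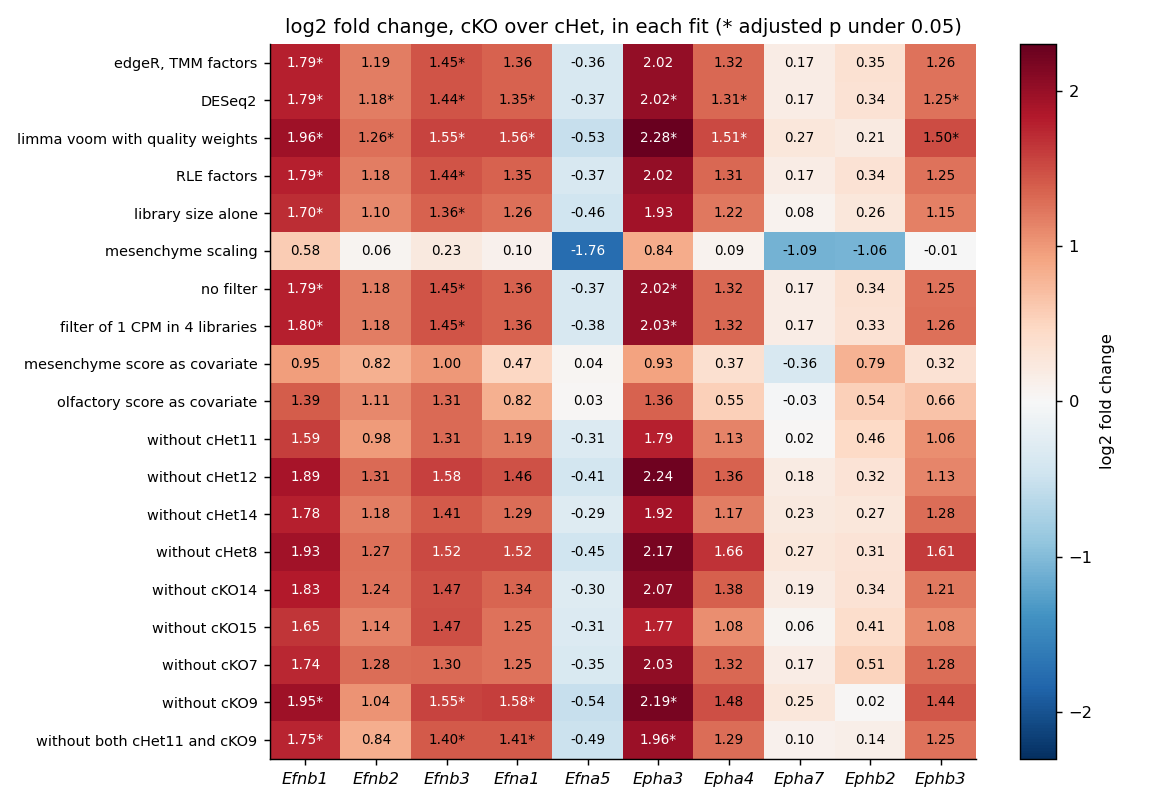
Log2 fold change of cKO over cHet (colour and printed value) for each of the 10 genes (columns) in the edgeR fit with TMM factors and in 18 other fits (rows), with an asterisk where the adjusted p was under 0.05. Efnb1, Efnb2, Efnb3, Efna1, Epha3 and Epha4 were positive in every fit shown, while Efna5, Epha7, Ephb2 and Ephb3 changed sign in at least 1 fit.

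Mesenchyme markers were also higher in cKO. Of the 12 markers all were detected in every library, and the mean of their log2 CPM was 1.19 higher in cKO, at 8.80 in cKO and 7.60 in cHet (exact p = 0.0571). One of them, Prrx1, was called higher by edgeR, where 1.08% of all tested genes were. DESeq2 and voom each called 7 of the 12 higher, against 6.24% and 5.96% of all genes. These were Col3a1, Col5a1, Col6a1, Pdgfra, Pdgfrb, Prrx1 and Prrx2. By edgeR, Pdgfra and Prrx2 had log2 values of 2.04 and 2.17 without overlap, while Lum and Dcn had negative values of −0.66 and −1.04. The library with the lowest marker sum in each group was also the lowest for most of the 10 genes: cKO9 for 7 of them and cHet11 for 8. In the edgeR fit with the mesenchyme score as a covariate, the log2 values were 0.95 for Efnb1 (adjusted p = 0.230), 0.997 for Efnb3 (adjusted p = 0.347) and 0.93 for Epha3 (adjusted p = 0.314). With the olfactory score as a covariate they were 1.39, 1.31 and 1.36 (adjusted p = 0.566, 0.517 and 0.696 by edgeR). Those fits called 15 and 1 of 21508 tested genes, so few genes of any kind passed. Unadjusted edgeR p-values were 0.00097, 0.0038 and 0.0026 with the mesenchyme score and 0.0076, 0.0034 and 0.019 with the olfactory score. At an unadjusted p under 0.05 stood 3 and 4 of the 10 genes, against 7.31% and 6.2% of all tested genes. Over all 18 alternatives, DESeq2 and voom included, the adjusted p ran from 3.77e-06 to 0.566 for Efnb1, from 1.04e-06 to 0.636 for Efnb3, from 3.26e-05 to 0.696 for Epha3 and from 0.00439 to 0.870 for Efna1.

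The genes were also set against the summed mesenchyme markers. That sum was higher in every cKO library than in every cHet library, so a gene with equal CPM in both groups has a lower ratio in cKO. Per 1000 CPM of the 12 markers, Epha3 stood at 22.9 in cKO7, 17.7 in cKO9, 17.8 in cKO14 and 21.2 in cKO15, against 10.8 in cHet8, 12.9 in cHet11, 11.3 in cHet12 and 9.22 in cHet14. Efnb1 averaged 5.25 ± 0.983 in cKO and 3.51 ± 0.729 in cHet on this scale (SD, n = 4 each). Both ratios were without overlap (two-sided exact permutation p = 0.0286, the smallest possible, in 11 ratios compared), although for Efnb1 the lowest cKO library at 4.68 and the highest cHet library at 4.54 lay close together. Efnb3, with the smallest p-value on the CPM scale, averaged 5.09 ± 1.65 in cKO and 4.33 ± 1.53 in cHet, and its groups overlapped (exact permutation p = 0.486, n = 4 each). Epha7, whose CPM were mixed between the groups, averaged 3.42 ± 0.509 in cKO and 7.29 ± 2.56 in cHet, the direction that the divisor gives. Its ratios did not overlap either, with every cKO library below every cHet library (two-sided exact permutation p = 0.0286). Efnb2 averaged 2.58 ± 1.20 in cKO and 2.47 ± 0.515 in cHet. Epha4 averaged 1.89 ± 0.256 in cKO and 1.78 ± 0.593 in cHet, and Ephb3 2.85 ± 0.342 in cKO and 2.87 ± 1.04 in cHet, and the groups of all 3 overlapped. The library cHet11, with the lowest marker sum, had the highest cHet ratio for all 10 genes. Most of the sum came from the collagen genes Col1a1, Col1a2 and Col3a1. With edgeR libraries scaled to these markers, the median log2 value over all genes was −1.40, and none of the 10 genes was called. At an unadjusted p under 0.05 stood Epha3 (log2 0.84), with a positive value, and Efna5 (−1.76) and Epha7 (−1.09), with negative ones, where 53.3% of all tested genes passed in either direction. Efnb1 had a log2 value of 0.58 and Efnb3 of 0.23. Of the 10 genes, 9 lay above the median of all genes, Epha7 among them, and Efna5 lay below it.

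**Figure D3:**
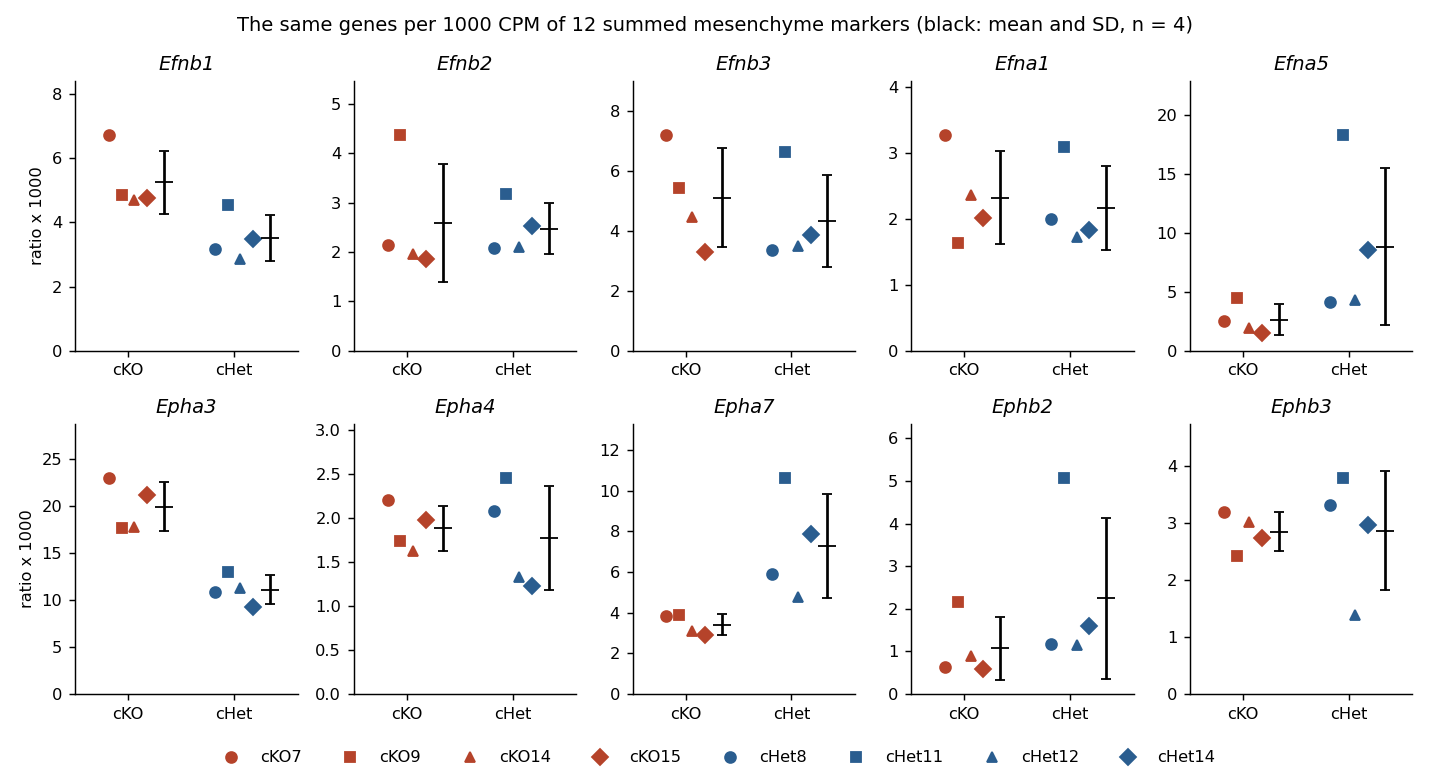
Level of each of the 10 genes per 1000 CPM of 12 summed mesenchyme markers (vertical axes, from 0), by library, cKO in red and cHet in blue, with the mean and SD of 4 libraries in black. Epha3 and Efnb1 are higher and Epha7 is lower in cKO without overlap, and Efnb3 overlaps. The divisor is larger in every cKO library, which lowers the cKO ratios of all genes, Epha7 included.

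Levels of different genes were compared per kilobase of exon. In cKO the order was Epha3 (43.9 ± 15.6 CPM per kb), Efnb3 (28.8 ± 5.95), Efnb1 (28.6 ± 7.67), Efna1 (24.1 ± 8.26), Efna5 (11.2 ± 2.56), Ephb3 (8.19 ± 2.56), Efnb2 (6.63 ± 1.56), Epha7 (6.38 ± 1.05), Epha4 (4.48 ± 1.53) and Ephb2 (1.44 ± 0.622). Ranges over the 4 libraries overlapped between all neighbours in that order except Epha4 and Ephb2. In cHet Efna5 came first at 14.3 ± 2.51 CPM per kb, followed by Epha3 (10.8 ± 4.82), Efnb3 (10.5 ± 2.61), Efna1 (9.38 ± 2.97) and Efnb1 (8.24 ± 2.65). Epha7 (5.66 ± 1.35), Ephb3 (3.43 ± 1.63), Efnb2 (2.92 ± 0.917), Epha4 (1.80 ± 0.852) and Ephb2 (1.13 ± 0.175) came after, and all neighbours overlapped. Efna5 thus stood first of the 10 genes in cHet, while 4 of them stood above it in cKO, with overlapping neighbours in both. Exon lengths came from GENCODE vM21 on GRCm38, an annotation other than the authors' build, and count all isoforms.

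**Figure D4:**
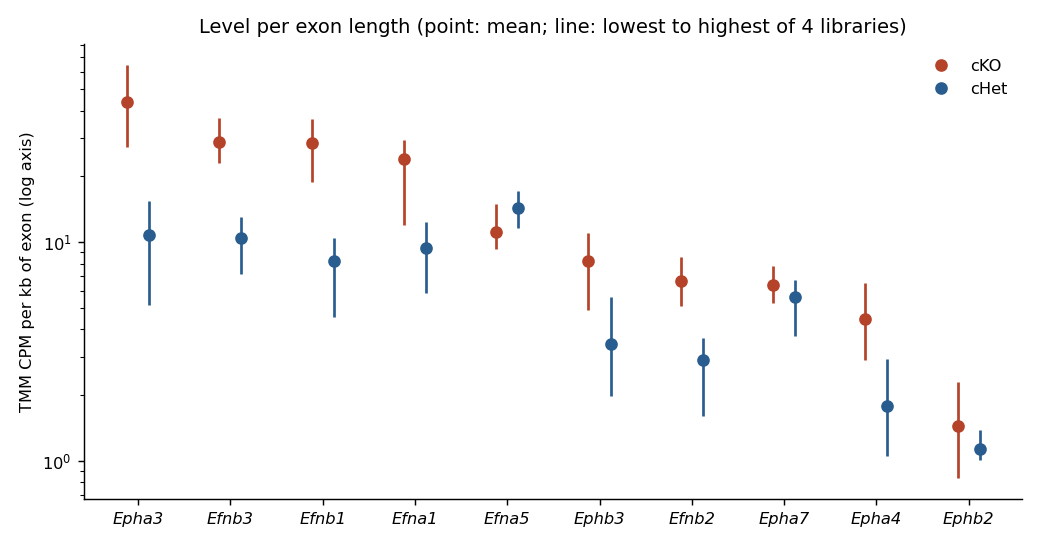
Level per kilobase of exon (log axis, TMM CPM per kb) of the 10 genes in cKO (red) and cHet (blue), in the order of the cKO mean; points are means and lines run from the lowest to the highest of 4 libraries. Epha3 is first in cKO and Efna5 is first in cHet.

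The rest of the family held another called gene. Ephb4, encoding the receptor of ephrin-B2 that is known from veins, stood at 153 CPM in cKO7, 73.2 in cKO9, 159 in cKO14 and 159 in cKO15, against 53.7 CPM in cHet8, 20.9 in cHet11, 40.5 in cHet12 and 34.6 in cHet14. The groups did not overlap, and Ephb4 rose (log2 1.86, SE 0.34, edgeR adjusted p = 0.0479), a call that ended under 11 of 18 alternatives. Of the 12 family genes outside the list, 10 were tested, with a median log2 value of 0.02. EdgeR called 1 higher and 0 lower, against 1.08% and 0.0558% of all tested genes. At an unadjusted p under 0.05, 4 were higher and 0 lower, against 10.8% and 6.33% of all tested genes. Ephb6, whose receptor lacks kinase activity, averaged 53.5 ± 14.8 CPM in cKO and 24.9 ± 7.51 CPM in cHet (log2 1.10, edgeR adjusted p = 0.102), and DESeq2 and voom called it higher. The ligand gene Efna2 averaged 38.1 ± 10.8 CPM in cKO and 22.9 ± 2.26 CPM in cHet (log2 0.73), and Efna4 11.3 ± 1.86 CPM in cKO and 6.86 ± 0.983 CPM in cHet (log2 0.72, without overlap). Neither was called by edgeR or voom, while DESeq2 called both higher.

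Efna3 had the highest level per kilobase of the whole family in both groups, at 48.3 ± 22.7 CPM per kb in cKO and 57.0 ± 11.5 in cHet, and a log2 difference of −0.24 (edgeR adjusted p = 0.757). Part of its exon length, 14.1%, is shared with another annotated gene, as is 10.5% of that of Efna4, 6.01% of Epha1, 2.17% of Ephb1 and 0.711% of Ephb4, and strand was not stated to be used in counting. Epha5 averaged 48.7 ± 14.6 CPM in cKO and 56.8 ± 16.6 CPM in cHet, and Ephb1 4.65 ± 1.22 CPM in cKO and 7.35 ± 2.35 CPM in cHet, neither of them called. Epha1 and Epha2 were low, with means of 3.25 and 5.29 CPM in cKO and 3.47 and 4.84 CPM in cHet. Epha8 had 79 counts in all libraries together and a log2 value of −1.52 with an interval that spanned 0. Epha6 and Epha10, with 24 and 51 counts in all, did not pass the filter. None of the 10 listed genes shares exon sequence with another gene in vM21.

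**Figure D5:**
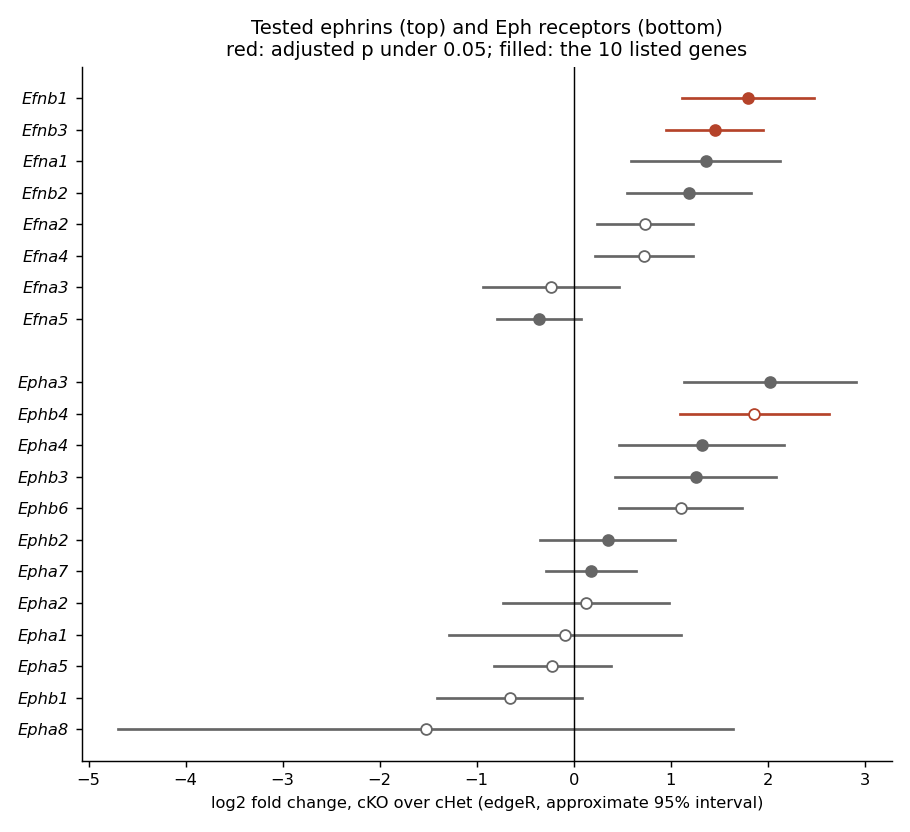
Log2 fold change of cKO over cHet with an approximate 95% interval (horizontal axis) for the 20 tested ephrins and Eph receptors, ligands above and receptors below. Efnb1, Efnb3 and Ephb4 are in red (adjusted p under 0.05), and filled points are the 10 listed genes.

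None of the listed genes that carry the signal inside cells was called by edgeR. Of 20 forward-signalling genes, which act below Eph receptors, edgeR called 0 (6 higher and 1 lower at an unadjusted p under 0.05), DESeq2 called 4 higher and voom 2. Their median log2 value was 0.03. For this and the following lists, the edgeR shares over all tested genes were 10.8% higher and 6.33% lower at an unadjusted p under 0.05. Of all tested genes, edgeR called 1.13%, DESeq2 8.75% and voom 7.22% in either direction. Sipa1l1, encoding a GTPase-activating protein for Rap, averaged 49.3 ± 15.0 CPM in cKO and 21.3 ± 4.72 CPM in cHet (log2 1.21, edgeR adjusted p = 0.0649). The kinase gene Abl1 averaged 61.9 ± 16.1 CPM in cKO and 32.2 ± 4.11 CPM in cHet (log2 0.94, edgeR adjusted p = 0.0723). Arhgef15, encoding ephexin-5, had a log2 value of 1.72 (3.71 ± 1.82 CPM in cKO and 1.12 ± 0.596 CPM in cHet), and Tiam1, a Rac activator, one of 1.27 (17.6 ± 10.7 CPM in cKO and 7.32 ± 2.44 CPM in cHet).

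Of 9 genes that act below B-type ephrins in reverse signalling, edgeR called 0 (2 higher and 2 lower at an unadjusted p under 0.05), while DESeq2 and voom each called 1 higher and 1 lower. Those were Rgs3, encoding a regulator that links ephrin-B to G proteins, at 101 ± 19.7 CPM in cKO and 58.4 ± 7.19 CPM in cHet (log2 0.80, edgeR adjusted p = 0.0648), and Sdcbp, encoding the ephrin-B tail binder syntenin, at 643 ± 53.2 CPM in cKO and 852 ± 54.8 CPM in cHet (log2 −0.41, edgeR adjusted p = 0.0967). Neither pair of groups overlapped. The kinase gene Fyn had a log2 value of 0.34 and Pick1 of −0.37. Of 7 genes of the proteases that cut ephrins and Eph receptors, edgeR called 0 (0 higher and 1 lower at an unadjusted p under 0.05), and DESeq2 and voom each called Psen2 lower (73.2 ± 3.66 CPM in cKO and 93.7 ± 9.19 CPM in cHet, log2 −0.36, edgeR adjusted p = 0.136). Adam10, which sheds ephrin-A ligands, averaged 122 ± 16.2 CPM in cKO and 117 ± 24.0 CPM in cHet. Adam17, Aph1a and Psenen had log2 values of 0.35, 0.27 and −0.14.

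Genes whose log2 CPM ran most alike over the 8 libraries were listed for the member with the smallest p-value and the member with the highest level, as a description. For Efnb3 these were Dio3os (Pearson r = 0.993), Cox4i2 (0.988), Angpt4 (0.984), Hepacam (0.982) and Atoh8 (0.982). For Epha3 they were Klf3 (0.996), Itga5 (0.995), Ntn5 (0.993), Fbln1 (0.993) and Hdac4 (0.992). The 8 libraries come from 2 genotypes, and 754 other genes had r above 0.9 with Efnb3 and 1064 with Epha3.

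Markers of other cells gave the following sums. Pericyte and smooth muscle markers (7 genes) summed to 191 to 421 CPM in cKO and 115 to 317 CPM in cHet, with Tagln near 0, at most 0.869 CPM in cKO and 0.655 CPM in cHet. Of these 7, Cspg4 was called higher by edgeR (37.2 ± 9.40 CPM in cKO and 12.6 ± 3.38 CPM in cHet, log2 1.57, adjusted p = 0.0421). Abcc9 and Kcnj8 had log2 values of 2.02 and 1.70 and were called higher, as Cspg4 was, by DESeq2 and voom, while Rgs5, Acta2 and Myh11 had values of 0.07, 0.06 and −0.17. Dental epithelium and ameloblast markers (9) summed to 4647 to 8698 CPM in cKO and 2564 to 11732 CPM in cHet, and odontoblast markers (5) to 92.0 to 228 CPM in cKO and 104 to 329 CPM in cHet. Odontoblast log2 values were 1.65 for Nes, without overlap, and −1.43, −1.23, −1.03 and −0.05 for Smpd3, Dspp, Ifitm5 and Dmp1. None of these was called by edgeR, while DESeq2 called Nes higher and Smpd3 lower and voom called Nes higher. Macrophage markers (7) summed to 62.0 to 194 CPM in cKO and 117 to 618 CPM in cHet. All 7 had negative log2 values, from −0.85 for Mrc1 to −2.75 for Ptprc. EdgeR called 0 of them and DESeq2 called Adgre1 and Ptprc lower. Neutrophil markers (6) summed to 23.7 to 1287 CPM in cKO and 50.9 to 18428 CPM in cHet, the top value being cHet12. By edgeR 5 of them were tested and 0 called, with log2 values from −1.41 for Ltf to −5.48 for Camp. DESeq2 called S100a8, S100a9 and Mpo lower, and voom called 0. Glial markers (5) summed to 99.6 to 323 CPM in cKO and 109 to 260.0 CPM in cHet, and erythroid markers (4) to 49.6 to 90.9 CPM in cKO and 46.0 to 90.3 CPM in cHet. The part of any of these cells, or of the mesenchyme content, in the ephrin and Eph differences was not tested.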

How the data were processed

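The authors' deposited whole-number counts per Ensembl gene were used; per the submitters' processing notes the reads went through Trim Galore and STAR with GRCm39 and mm39, and the counting tool, annotation and versions are named in none of the sources used here. Per the labels' protocols, SMART-Seq v4, a low-input kit, was used on sorted cells. Identifiers were matched to symbols without version suffix (52073 of 56748), taking the identifier with the most counts for each symbol.

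Genotypes were compared across all genes in R 4.3.3 with edgeR 4.0.16 (filterByExpr, TMM factors, quasi-likelihood F test, genotype as sole term), with Benjamini-Hochberg adjustment over 21508 genes and calls at an adjusted p under 0.05, two-sided. Fold changes are cKO over cHet. Standard errors are the size of the log2 fold change over the root of F, and intervals (95%) derive from them; both are approximate. Values per library are CPM on TMM-scaled sizes, and logs use a prior count of 2. Single values were compared by exact permutation over 70 assignments. The fit was first tested on simulated counts with known changes in 200 genes. It recovered 67% of the 4-fold and 90% of the 16-fold changes, and 10 of its 167 calls were false. Alternatives used DESeq2 1.42.0, limma 3.58.1 (voom), other scalings, filters and covariates, and omission of libraries.

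The members and gene lists were chosen with earlier results of these data known. Named genes were all 10 members, all tested family genes, the called and the 4 smallest-p genes of each signalling list, and the 5 genes most alike to 2 members. Adam10 and the single marker genes were named after their values were seen.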

Additional observations from a re-analysis of the deposited data

Results flagged for a closer look

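Ephb2 in cHet11 stood at 17.6 CPM, far from the other cHet libraries at 12.8 to 13.6 CPM, with a gap of 0.831 of the group's range. It was the sole such value among 20 groups of 4 libraries (10 genes in each genotype), and chance gives about 1 in 20 groups. cHet11 was also the library with the lowest sum of mesenchyme markers, at 3466 CPM, and the lowest cHet library for 8 of the 10 genes.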

How the results depend on the processing

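Of the counts, the genes called over the table moved most. DESeq2 gave 1390 higher and 561 lower genes, voom 1281 and 271, mesenchyme scaling 0 and 0 (11458 at an unadjusted p under 0.05 by edgeR), the mesenchyme covariate 10 and 5, the olfactory covariate 1 and 0, and no filter 216 and 5, against 232 and 12. Leaving out 1 library gave 0 to 816 higher and 0 to 144 lower genes, with 0 of either kind without cHet12, cHet14 or cKO14 (2934 to 3352 at an unadjusted p under 0.05 by edgeR). Omission of both cHet11 and cKO9, chosen after seeing the data, gave 609 and 32. Of the 10 listed genes, 7 were called higher by DESeq2 and by voom, 0 with mesenchyme scaling and with either covariate, 4 without cHet11 and cKO9, and 0 to 4 with 1 library left out, against 2. At an unadjusted p under 0.05, mesenchyme scaling left 1 of the 10 higher and 2 lower (53.3% of all genes in either direction), the mesenchyme covariate 3 higher (7.31%) and the olfactory covariate 4 higher (6.2%). Of the whole family, 11 were called higher by DESeq2, 9 by voom, 0 with mesenchyme scaling and with either covariate, 6 without cHet11 and cKO9, and 0 to 7 with 1 library left out, against 3. No listed or family gene was called lower in any of the 18 alternatives. RLE factors, library size alone and a filter of 1 CPM in 4 libraries moved no count by over 1.5 times.

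Signs turned for genes that were not called: Efna5 to 0.0395 (log2) with the mesenchyme and 0.0258 with the olfactory covariate, Epha7 to −1.09 with mesenchyme scaling, −0.36 with the mesenchyme and −0.0337 with the olfactory covariate, Ephb2 to −1.06 and Ephb3 to −0.0106 with mesenchyme scaling. That scaling shifts all genes by a median of −1.40. The causes were not tested. With the core CTTTGAT alone, 0 of 11 promoter windows held a match, against 3.73% of all windows.

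No paired analysis was possible because the columns of the count table carry none of the replicate numbers in the titles. Depth was at least 44444033 counts in every library, and the members' lowest count was 449.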
